A study of Mus musculus with 12 samples.

Results

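Transcripts of 10 interferon-inducible GTPase genes were followed in J774A.1 cells, a macrophage-like line of BALB/c mouse origin. The 10 genes were taken by symbol from the deposited table of 11762 genes: the guanylate-binding protein (GBP) genes Gbp2, Gbp3, Gbp5, Gbp7 and Gbp8, and the immunity-related GTPase (IRG) genes Irgm1, Irgm2, Igtp, Iigp1 and Ifi47. Polyadenylated RNA came from 4 groups of 3 biological replicates: mock-treated cells (control), cells given microparticles (MP), cells given lipopolysaccharide (LPS), and cells given both (LPS+MP). All groups are 1 cell line with no genetic change named. The make-up of the microparticles is not given in the sources used here, nor is any dose or exposure time.

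GBPs and IRGs are GTPases that gather on the vacuoles of intracellular bacteria and parasites, and on bacteria and LPS in the cytosol. Cells make little of them until interferon is sensed. LPS acts on Toll-like receptor 4 (TLR4), and in macrophages the interferon beta made in response acts back on the same cells and switches on genes that carry the interferon-stimulated response element (ISRE). Interferon gamma acts on genes that carry another element, the gamma-activated site (GAS). GBPs open vacuoles and bring cytosolic LPS to caspase-11, while the IRGs are of 2 kinds: regulators that sit on the cell's own membranes and effectors that load onto vacuoles.

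The genes lie in clusters. In the deposited coordinates, which matched GENCODE M21 (GRCm38) within 100 bases at 9 of 10 gene starts and 10 of 10 gene ends, Gbp5, Gbp7, Gbp3 and Gbp2 lay on the plus strand of chromosome 3, in that order. Gbp5 spanned 142496934 to 142522344, Gbp7 142530338 to 142550083, Gbp3 142560052 to 142573209 and Gbp2 142620602 to 142638008. Gbp8 lay apart, on the minus strand of chromosome 5 (105014153 to 105139540). Its span held that of Gbp9 (105078394 to 105139539) and overlapped that of Gbp4 (105115767 to 105139586), both on the same strand. On chromosome 11, Irgm1 spanned 48861968 to 48871683 (minus strand), Ifi47 49076587 to 49096974, Igtp 58199556 to 58207591 and Irgm2 58199618 to 58222779 (plus strand).

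The RefSeq promoter table (GRCm38.p6), which gives 250 bases before to 50 bases after a start site, held windows for 8 of the 10 genes, Gbp8 and Iigp1 being without an entry. An ISRE-type match (GAAA, any 2 bases, then GAAA, searched on both strands) was present in 7 of the 8 genes. By window this was 7 of 9, as Gbp3 had a second window without a match, against 3.44% of all 32851 windows. The stretches are printed because they hold the motif that was found in most of these genes, of the 3 motifs searched. Each is given 5′ to 3′ on the gene's own strand, with 12 bases either side of the match. Capitals mark the ISRE-type matches and, for Igtp and Irgm2, also a GAS-type match (TTC, any 3 bases, then GAA, which reads the same on both strands) just upstream.
Gbp2: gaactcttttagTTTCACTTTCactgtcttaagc
Gbp3: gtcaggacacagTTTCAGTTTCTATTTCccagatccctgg
Gbp5: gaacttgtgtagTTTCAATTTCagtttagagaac
Gbp7: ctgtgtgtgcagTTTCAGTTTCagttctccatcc
Irgm1: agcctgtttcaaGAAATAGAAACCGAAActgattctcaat
Irgm2: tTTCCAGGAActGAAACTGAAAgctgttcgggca
Igtp: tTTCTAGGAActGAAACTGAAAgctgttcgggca
These stretches lie at 142620592 to 142620625 (Gbp2), 142559987 to 142560026 (Gbp3), 142496757 to 142496790 (Gbp5) and 142530271 to 142530304 (Gbp7) of chromosome 3. On chromosome 11 they lie at 48871423 to 48871462 (Irgm1), 58214901 to 58214934 (Irgm2) and 58199510 to 58199543 (Igtp).

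In Gbp3 and Irgm1 there were 2 overlapping ISRE-type matches, counted as a single stretch above. The 4 chromosome 3 genes carried the motif in the orientation that reads TTTC, and the 3 chromosome 11 genes in the orientation that reads GAAA. The match began 165 bases upstream of the RefSeq start in Gbp5 and between 30 and 64 bases upstream in the other 6 genes. The deposited spans of Gbp2, Irgm1 and Irgm2 began farther upstream, so their matches lay inside those spans. The deposited Irgm2 span began at 58199618, and its stretch lies at 58214901 to 58214934. GAS-type matches were present in Gbp5, Gbp7, Igtp and Irgm2, 4 of 8 genes and 4 of 9 windows, against 8.3% of all windows. The kappa-B consensus, bound by NF-kappa-B, was matched in Gbp5 and Gbp2, 2 of 8 genes and 2 of 9 windows, against 8.46% of all windows. The window of Ifi47 held none of the 3 motifs. Igtp and Irgm2, whose annotated exons overlap, had promoter windows with 244 identical bases of 300 (81.3%), while the other pairs of these 8 genes had 49% to 56.3%. A match is a description of letters, and no binding was measured.

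**Figure D1:**
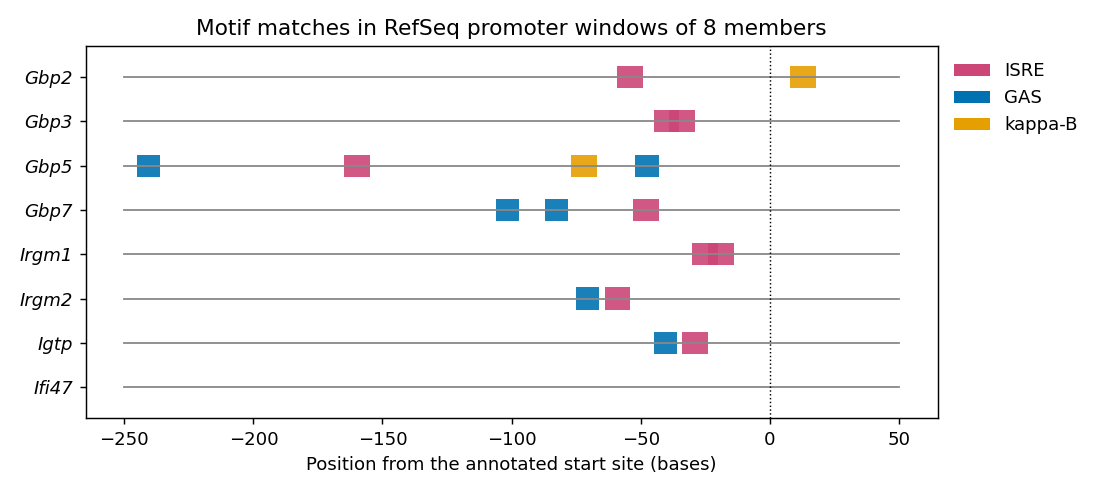
Motif matches in the 300-base RefSeq promoter windows of 8 of the 10 genes. The x axis gives the position in bases from the RefSeq start site (dotted line). Boxes are ISRE-type (pink), GAS-type (blue) and kappa-B (orange) matches. In 6 genes the ISRE-type match starts within 64 bases of the start site, in Gbp5 it lies farther upstream, and Ifi47 has no box. A second window of Gbp3, with no ISRE-type match, is not drawn.

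Values are in CPM, a gene's reads scaled to a common library total, and log2 differences are on the log2(CPM + 1) scale ± SE. That scale understates changes of genes near 0. "Rose" and "fell" are kept for genes with an adjusted p under 0.05 in limma (Benjamini-Hochberg over all genes tested) and a difference of over 1, which is 2-fold. After removal of genes under 1 CPM in more than 9 libraries, 11745 were tested, all 10 GTPase genes among them; Gbp5 and Iigp1 passed only through libraries that had received LPS. The number of reads per library is unknown, so no counting error is given. LPS replicate 2 stood apart from its group. It had 339 genes over 1 (log2) from the mean of its group mates, against 17 and 29 in the other LPS libraries and 1 to 8 elsewhere. Macrophage markers were present for 7 of 8 genes listed, Adgre1 being without a row, with summed levels of 5309 to 5943 CPM in control, 5416 to 5772 in MP, 5913 to 7026 in LPS and 4657 to 4845 in LPS+MP. No marker of T, B, NK or epithelial cells was in the table. Of 4 fibroblast markers only Pdgfra was, at 1.00 to 1.64 CPM in control, 1.99 to 2.35 in MP, 7.67 to 10.8 in LPS and 6.90 to 7.97 in LPS+MP. Of 4 neutrophil markers only S100a8 was, at 1.22 to 2.65, 1.36 to 2.06, 3.88 to 4.54 and 1.40 to 4.06 CPM in the same order. Of 3 endothelial markers only Cdh5 was, at 0.940 to 2.54 CPM without LPS and 0.827 to 2.35 with it. The part of these shifts in the results was not tested. In bulk RNA, fewer responding cells and less RNA per cell cannot be told apart.

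LPS raised all 10 genes and lowered none, against 8.3% of all genes tested that rose and 8.05% that fell. Gbp5 and Iigp1 had to be high with LPS to pass the filter; of the other 8 genes 8 rose, with a median of 2.23. The median difference of the 10 was 2.23, and that of all tested genes was -0.08. On the log2(CPM + 1) scale the chromosome 3 genes Gbp2, Gbp3, Gbp5 and Gbp7 rose by 4.84 to 5.48, and the 5 IRG genes by 1.49 to 2.29. The value of Iigp1, near 0 in control, rests on the pseudocount: with 0.1 in place of 1 it was 4.13, while the other 4 IRG genes stood at 1.69 to 2.46 and the chromosome 3 GBPs at 5.16 to 7.58. Gbp8 rose by 1.55. Without LPS replicate 2 the count was again 10. In each of the 10 genes the lowest LPS library lay above the highest control library, as it did for 27.3% of all genes.

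Gbp2, a GBP with a lipid-anchoring CaaX end that is recruited to vacuoles and bacteria, stood at 3.35, 3.42 and 3.62 CPM in control and at 154, 138 and 97.0 CPM in LPS. It rose by 4.84 ± 0.18 (adjusted p = 2.71e-12), a 37.4-fold ratio of mean CPM. Gbp3, which contributes to caspase-11 activation, had control values of 4.49, 4.80 and 4.98 CPM and LPS values of 268, 234 and 176 CPM. Its difference was 5.28 ± 0.14 (adjusted p = 5.63e-14), a 47.5-fold ratio of means. For both genes the control libraries lay close together and LPS replicate 3 was the lowest of the LPS libraries.

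Gbp7, linked to vacuole defence together with NADPH oxidase, went from 3.42, 3.49 and 2.63 CPM to 206, 195 and 152 CPM with LPS. The rise was 5.47 ± 0.19 (adjusted p = 1.60e-12). Gbp5, a prenylated GBP known for promoting inflammasome assembly, was nearly silent in control at 0.228, 0.131 and 0.152 CPM. In LPS it reached 76.6, 53.7 and 32.7 CPM, with the highest and lowest libraries far apart for their mean of 54.3 CPM. It rose by 5.48 ± 0.24 (adjusted p = 2.07e-11), as a gene that passed the filter only through libraries with LPS. As control was near 0, no fold is given for Gbp5.

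The regulatory IRGs, which hold effector IRGs inactive on the cell's own membranes, rose by similar amounts. Irgm1, needed for control of mycobacteria and for mitochondrial and lysosomal upkeep, was at 23.3, 19.5 and 18.3 CPM in control and 95.1, 111 and 78.1 CPM in LPS. Its difference was 2.16 ± 0.12 (adjusted p = 3.81e-10), a 4.66-fold ratio of mean CPM. Irgm2, which restrains caspase-11 responses, stood at 5.38, 5.24 and 5.89 CPM against 33.1, 37.7 and 23.4 CPM and rose by 2.29 ± 0.16. Igtp, also called Irgm3 and found on the endoplasmic reticulum and lipid droplets, stood at 6.02, 7.38 and 6.96 CPM against 35.8, 27.8 and 27.6 CPM and rose by 2.00 ± 0.12. For each of the 3 genes the highest control library was well below the lowest LPS library.

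Both effector IRGs rose as well. Ifi47, also called Irgd, had 4.47, 3.45 and 3.69 CPM in control and 13.9, 14.0 and 10.3 CPM in LPS, a difference of 1.49 ± 0.16 (adjusted p = 6.45e-07). Iigp1, also called Irga6 and among the first IRGs to load onto Toxoplasma vacuoles, was listed at 0, 0.0259 and 0.0194 CPM in control. In LPS it came to 2.62, 1.79 and 1.46 CPM, with a difference of 1.52 ± 0.24 (adjusted p = 4.47e-05; 4.13 with a pseudocount of 0.1). Iigp1 too passed the filter only through libraries with LPS. It stayed the lowest of the 10 with LPS on the scale of CPM per kilobase of transcript as well.

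**Figure D2:**
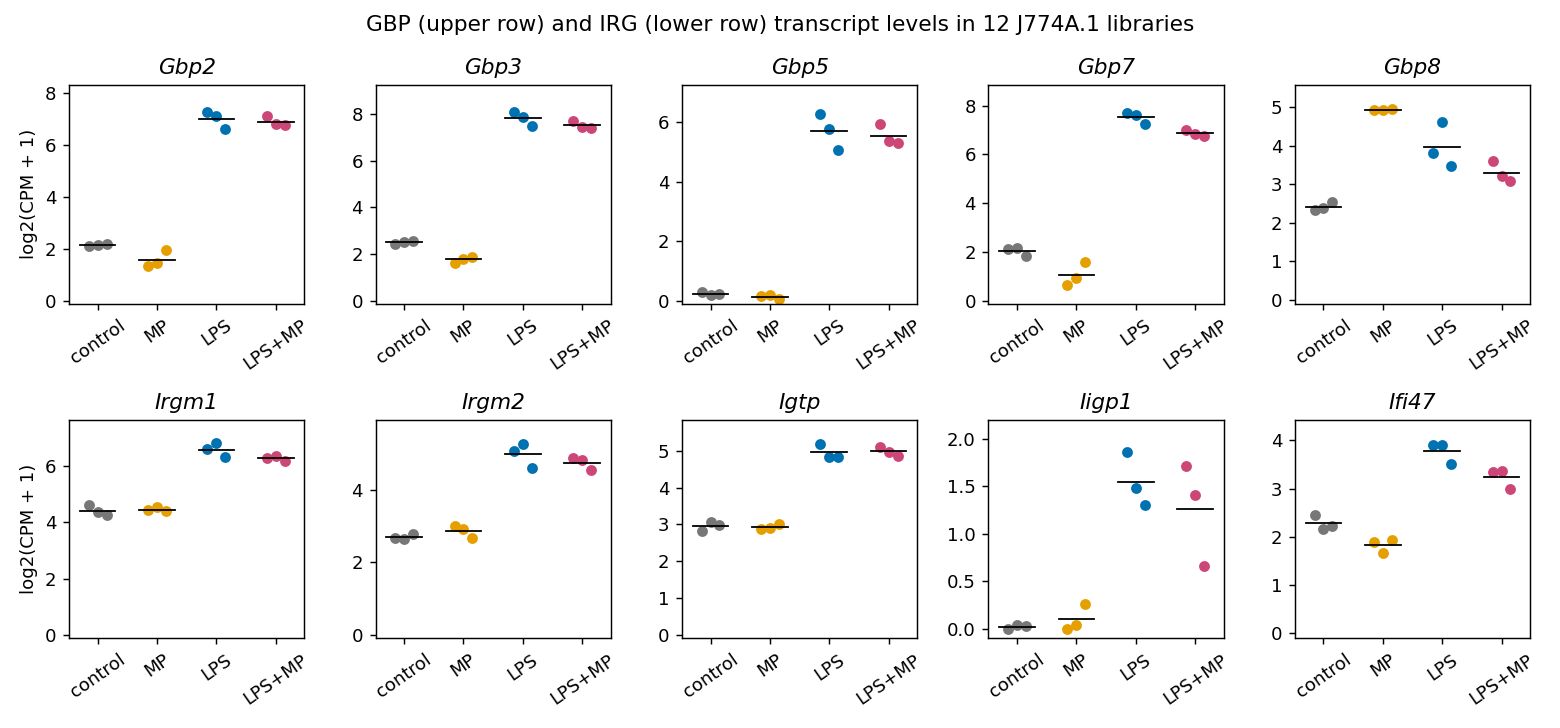
Level of each of the 10 genes in the 12 libraries, as log2(CPM + 1) on the y axis, by group on the x axis. Points are libraries and bars the group means of 3. The 9 genes other than Gbp8 are high in the 6 libraries with LPS, and Gbp8 is highest in the 3 MP libraries.

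MP without LPS moved the family differently. Gbp8 was the only one of the 10 that rose and none fell, against 1.82% of all genes that rose and 1.85% that fell. Gbp8 stood at 4.02, 4.20 and 4.81 CPM in control and at 29.6, 29.6 and 29.8 CPM in MP. The MP libraries were nearly equal and far above control. The difference was 2.52 ± 0.22 (adjusted p = 4.88e-07), a 6.83-fold ratio of mean CPM. Under 16 alternative settings the difference ran from 2.48 to 2.75 and was called in each.

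Under the same exposure 4 genes lay below control at an adjusted p under 0.05: Gbp2, Gbp3, Gbp7 and Ifi47. None of them reached a difference of 1 on the log2(CPM + 1) scale. That is 4 of 10, against 18.3% of all genes lower by the same criterion. Gbp7 was at 0.594, 0.932 and 2.01 CPM in MP, with every library below the lowest control library at 2.63 CPM. Its difference was -0.99 ± 0.19 (adjusted p = 0.000779), at the edge of the size threshold. The ratio of its mean CPM, MP over control, was 0.371, which is past 2-fold. Leaving out control replicate 3 gave -1.08 for Gbp7, leaving out MP replicate 3 gave -1.25, and a pseudocount of 0.1 gave -1.50; each of these passed.

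Gbp3 came to 2.08, 2.53 and 2.75 CPM in MP, all below control, with a difference of -0.74 ± 0.14 (adjusted p = 0.000552). Gbp2 came to 1.56, 1.74 and 2.92 CPM, with a difference of -0.56 ± 0.18 (adjusted p = 0.0194). Ifi47 had 2.72, 2.18 and 2.83 CPM, with a difference of -0.44 ± 0.16 (adjusted p = 0.0347). These 3 genes also had MP libraries that did not overlap control, so that 5 of 10 genes, Gbp7 and Gbp8 included, had separate groups. Over all tested genes 59% had separate groups, so the share in the family was no higher. The adjusted p of Gbp2 reached 0.0919 without MP replicate 1 and that of Ifi47 reached 0.138 without control replicate 1.

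The regulatory IRGs did not pass any threshold with MP. Irgm1 stood at 20.4, 22.4 and 19.9 CPM in MP, and the 95% interval of its difference ran from -0.21 to 0.30. Irgm2 had 6.98, 6.55 and 5.38 CPM, with an interval of -0.18 to 0.50. Igtp had 6.29, 6.45 and 7.06 CPM, with an interval of -0.30 to 0.23. These intervals leave out a 2-fold difference in either direction for all 3 genes. Gbp5 and Iigp1 stayed at or under 0.201 CPM in every MP library, too low to tell a difference at this scale.

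Summed over the 5 GBP genes, control held 15.9 ± 0.358 CPM and MP 35.5 ± 1.87 CPM (SD, n = 3). Without Gbp8 the sums were 11.6 ± 0.241 and 5.81 ± 1.72 CPM, so the sum moved up with Gbp8 and down without it. The summed 5 IRG genes came to 36.5 ± 2.31 CPM in control and 36.4 ± 1.13 CPM in MP. Sums were not tested.

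On the scale of CPM per kilobase, Gbp8 made up 31.8% ± 1.79 of the 5 GBP transcripts in control and 86.0% ± 3.07 in MP (SD, n = 3). The share was 3.28% ± 1.26 in LPS and 2.34% ± 0.180 in LPS+MP. In the 3 MP libraries it was 88.6%, 86.7% and 82.6%, so each MP library had mostly Gbp8 among these transcripts. Gbp3 and Gbp2 led with LPS, at 43.8% ± 1.04 and 26.7% ± 0.227. Per kilobase of coding sequence Gbp7 came second in LPS, at 96.4 CPM, ahead of Gbp2 at 73.3.

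**Figure D3:**
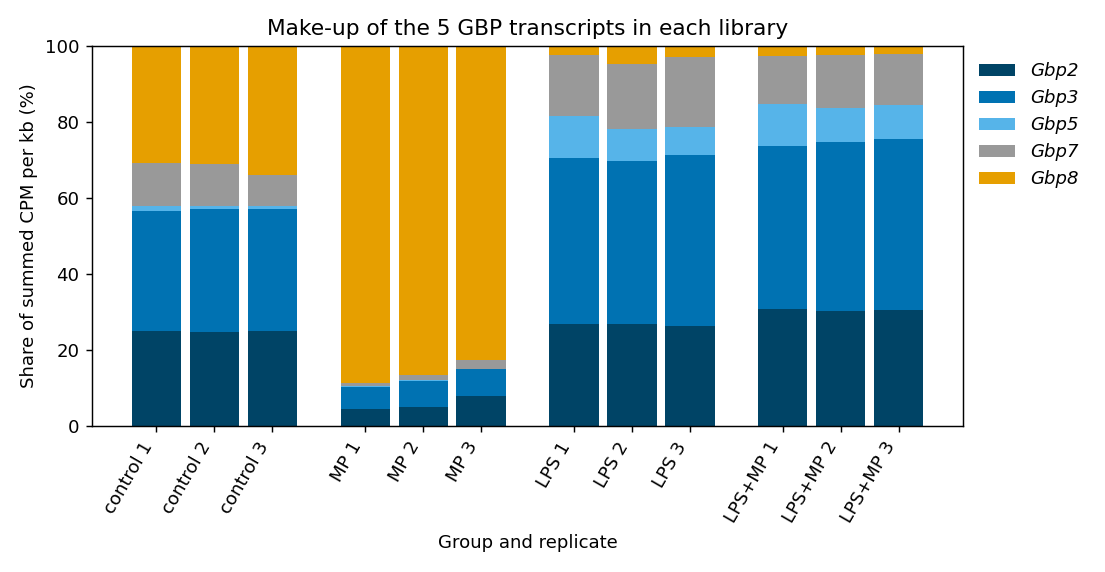
Make-up of the 5 GBP transcripts in each of the 12 libraries, as the share (%) of their summed CPM per kilobase of transcript on the y axis. Gbp8 (orange) is 82.6% to 88.6% in MP, 30.7% to 33.9% in control, and at most 4.70% in any library with LPS.

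Levels between genes were compared per kilobase of transcript. In control, Irgm1 was highest, with libraries from 8.08 to 10.3 CPM per kb, followed by Igtp at 3.36 ± 0.343 and Ifi47 at 2.29 ± 0.317. Gbp3 at 1.77 ± 0.0924, Gbp8 at 1.77 ± 0.169 and Irgm2 at 1.59 ± 0.0976 could not be ordered beyond their spread, and Gbp2 followed at 1.38 ± 0.0560. Gbp7 at 0.567, Gbp5 at 0.0558 and Iigp1 at 0.00484 were lowest.

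In MP the order began with Gbp8 at 12.1 ± 0.0627 CPM per kb, above Irgm1 at 9.24 ± 0.587; Gbp8 came first under coding length and longest transcript length too. In LPS it began with Gbp3 at 84.2 ± 17.4, Gbp2 at 51.5 ± 11.7, Irgm1 at 42.0 ± 7.29 and Gbp7 at 32.9 ± 5.07. The lowest LPS library of Gbp3, at 65.5, lay above the highest of Gbp2, at 61.2, while Gbp2 overlapped Irgm1 and Irgm1 overlapped Gbp7. In LPS+MP the first 4 were the same genes in the same order, at 68.4, 47.6, 33.6 and 20.8 CPM per kb. Gbp8 was the ninth of 10 in both LPS groups. With coding length 13 of the 40 ranks changed, and with longest transcript length 9 of 40.

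Adding MP to LPS left all 10 genes under the call. None rose or fell in LPS+MP against LPS by limma, with 4 at an unadjusted p under 0.05, against 4.52% of all genes called and 44.5% at that unadjusted p. The median difference of the 10 was -0.28, and that of all tested genes was -0.05. At an adjusted p under 0.05 of any size 3 of 10 were lower, Gbp7, Gbp8 and Ifi47, against 22.2% of all genes. Separate groups were seen in Gbp7 and Ifi47, 2 of 10 and both lower, against 26.5% of all genes.

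Gbp7 was at 129, 114 and 106 CPM in LPS+MP, with every library below the lowest LPS library at 152 CPM. Its difference was -0.65 ± 0.19 (adjusted p = 0.0148; 0.0869 with a pseudocount of 0.1). Ifi47 came to 9.16, 9.24 and 6.99 CPM, below all LPS libraries, with a difference of -0.54 ± 0.16 (adjusted p = 0.0145; 0.0887 with quantile normalization). The effector Iigp1 had 2.28, 1.64 and 0.581 CPM and a difference of -0.29 ± 0.24 (adjusted p = 0.372).

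Gbp8 came to 11.2, 8.26 and 7.55 CPM in LPS+MP and to 13.0, 23.6 and 10.1 CPM in LPS. LPS replicate 2 was the high value, and the groups overlapped. The difference was -0.66 ± 0.22 (adjusted p = 0.0284). Over the alternatives its adjusted p ran from 0.00325 to 0.120. Without LPS replicate 2 it was -0.33 (adjusted p = 0.0683), and the LPS-against-control rise of Gbp8 was 1.23 in place of 1.55.

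The other GBPs had overlapping groups. Gbp3 stood at 207, 173 and 169 CPM in LPS+MP (difference -0.28 ± 0.14, adjusted p = 0.118), Gbp2 at 140, 111 and 108 CPM (-0.10 ± 0.18) and Gbp5 at 60.4, 40.6 and 38.1 CPM (-0.17 ± 0.24). Among the regulators, Irgm1 came to 76.8, 80.2 and 70.4 CPM (-0.31 ± 0.12, adjusted p = 0.0589), Irgm2 to 28.9, 27.3 and 22.3 CPM (-0.24 ± 0.16) and Igtp to 33.8, 30.7 and 28.0 CPM (0.03 ± 0.12). The 95% intervals of these 6 genes lay within -0.68 and 0.33, short of 2-fold.

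The spread within the LPS groups was shared between the genes. LPS replicate 3 lay below its group mean for 10 of 10 genes, by a median of 0.30 (log2), and LPS replicate 1 above it for 9. LPS+MP replicate 3 lay below its group mean for 10 genes and LPS+MP replicate 1 above it for 10. The median over all genes was between -0.02 and 0.02 in each library.

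**Figure D4:**
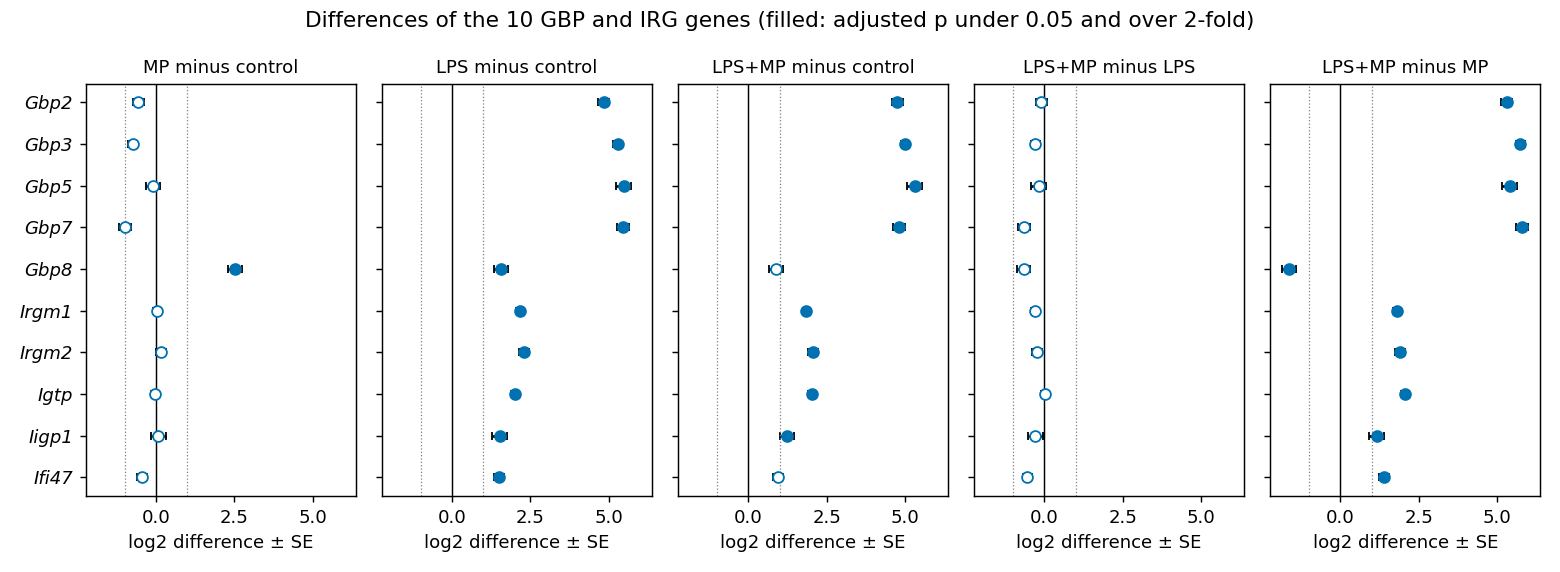
Log2 differences ± SE (x axis) of the 10 genes in 5 comparisons. Filled points passed an adjusted p under 0.05 and over 2-fold, dotted lines marking 2-fold. All 10 points are filled to the right for LPS minus control, none for LPS+MP minus LPS, and Gbp8 alone is filled for MP minus control.

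LPS+MP cells were also set against control and against MP cells, comparisons that share libraries with those above. Against control, 8 of 10 genes rose and none fell, against 8.52% of all genes that rose and 12.3% that fell. Gbp8 (0.89 ± 0.22, adjusted p = 0.00205) and Ifi47 (0.96 ± 0.16, adjusted p = 5.96e-05) were higher but short of 1 on the log2(CPM + 1) scale. Their ratios of mean CPM were 2.08 and 2.19. Of the 8 genes other than Gbp5 and Iigp1, 6 rose. Iigp1 rose by 1.24 ± 0.24, and by 3.63 with a pseudocount of 0.1. All 10 had separate groups, against 32.7% of all genes higher in this way. Ifi47 was called in 6 of 16 alternatives, including no fold threshold, quantile normalization (1.19), median-ratio scaling (1.05) and a pseudocount of 0.1 (1.11). Gbp8 was called in 3 of 16: no fold threshold, quantile normalization (1.13) and the pseudocount of 0.1 (1.02). Quantile normalization raised the median of all genes by 0.11 in this comparison.

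Against MP alone, 9 of 10 genes rose and Gbp8 fell, against 5.71% of all genes that rose and 7.88% that fell. The fall of Gbp8 was -1.63 ± 0.22 (adjusted p = 1.18e-05), with all MP libraries above all LPS+MP libraries. Groups were separate for all 10 genes, against 24% of all genes higher and 44.6% lower in this way. The chromosome 3 GBPs rose by 5.31 to 5.80, the regulatory IRGs by 1.81 to 2.06, Ifi47 by 1.40 and Iigp1 by 1.16. The difference of Iigp1 was 3.19 with a pseudocount of 0.1, and 0.93 without LPS+MP replicate 1, which ended its call. Of the 8 genes other than Gbp5 and Iigp1, 7 rose and 1 fell.

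Whether the effect of MP depended on LPS was tested as an interaction, the MP effect with LPS minus the MP effect without. Gbp8 was the only one of the 10 called, against 4.7% of all genes. The interaction of Gbp8 was -3.19 ± 0.31 (adjusted p = 4.27e-06): MP raised it in cells without LPS and not in cells with LPS. It ran from -3.46 to -2.86 over 20 alternatives and was called in each. The next largest were Gbp2 at 0.47 ± 0.25 (adjusted p = 0.194) and Gbp3 at 0.46 ± 0.19 (adjusted p = 0.103), and the 95% intervals of Gbp7 (-0.23 to 0.90) and Ifi47 (-0.56 to 0.37) included 0.

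**Figure D5:**
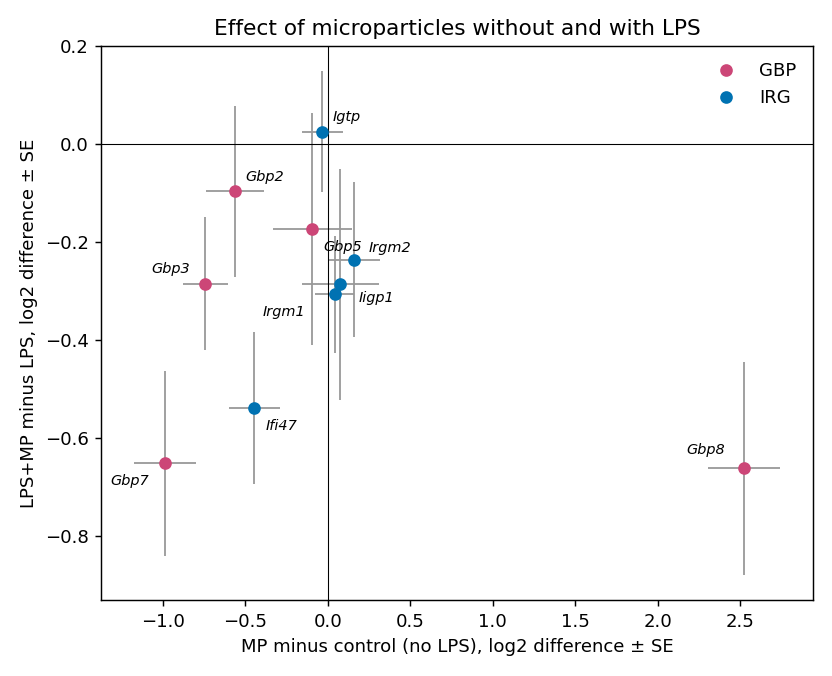
Effect of MP without LPS (x axis) and with LPS (y axis) on each of the 10 genes, as log2 differences ± SE. Gbp8 stands alone at 2.52 on the x axis and -0.66 on the y axis, while the points of Gbp2, Gbp3, Gbp5, Gbp7 and Ifi47 lie below 0 on both. The SE bars of Gbp5 cross 0 on both axes, and that of Gbp2 crosses 0 on the y axis.

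Gbp8 shared sequence and space with its neighbours. Of the 50-base stretches of its transcript, 21.16% also occurred in transcripts of other genes, most in Gbp11, Gbp4 and Gbp10, and 61 bases of its exons (1.77%) overlapped exons of Gbp4 and Gbp9 on the same strand. The treatment of reads that match several genes is not given in the sources used here. The other 78.84% of the stretches were its own. Gbp9, the overlapping neighbour, went the other way with MP: 6.06, 6.39 and 5.73 CPM in control and 2.33, 1.67 and 3.65 CPM in MP. Gbp4 stood at 0.350 ± 0.116 CPM in control and 0.340 ± 0.166 in MP, Gbp10 at 0.0527 ± 0.0452 and 0.256 ± 0.135, and Gbp6 at 0.334 ± 0.280 and 0.588 ± 0.0833 (SD, n = 3). Gbp11 had no row in the table. For the other 9 genes the share of 50-base stretches found elsewhere was 0.23% to 12.85%, highest in Gbp7 (with a predicted gene, Gbp3 and Gbp11) and Igtp (with Irgm2).

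The other GBPs, IRGs and large interferon-inducible GTPases had 11 tested genes of 20 listed. With LPS 10 of the 11 rose and none fell (median 3.33), against 8.3% and 8.05% of all genes. Gbp4, Gbp6, Gbp10, Gm4951, F830016B08Rik, Mx1 and Mx2 were under 1 CPM in every library without LPS. These genes had to be high with LPS to pass the filter, so the count and median above lean on it. Of the rest, Gbp2b, Gbp9 (3.13 ± 0.18) and Gm4070 rose, and Irgq did not. The genes that rose included Mx1 (5.46 ± 0.17) and Mx2 (4.60 ± 0.14), large GTPases that block viruses, and the GBP gene Gbp2b (5.40 ± 0.17). Irgq, an IRG-like gene, was higher by 0.42 ± 0.09 only. Gm4070 rose by 2.85 ± 0.11, with 98.86% of its 50-base stretches found elsewhere, most in Gvin1.

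With MP alone 1 of the 11 fell and none rose (median 0.03), against 1.85% and 1.82% of all genes. The gene that fell was Gbp9 (-1.03 ± 0.18, adjusted p = 0.000323). It lost the call with quantile normalization (-0.99), without control replicate 2 (-0.996) and without MP replicate 2 (-0.84). Adding MP to LPS gave 0 calls of 11 by limma, with 4 at an unadjusted p under 0.05 (median -0.27), against 44.5% of all genes. The most abundant by the mean of the 4 groups, Gbp2b and Irgq, differed by -0.22 ± 0.17 and 0.03 ± 0.09. Mx1, chosen after its value was seen, was lower by this measure at -0.83 ± 0.17 (adjusted p = 0.00125), with 62.1 ± 12.4 CPM in LPS and 34.4 ± 6.82 in LPS+MP.

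Genes that carry the signal from TLR4 and interferon receptors to these GTPases had 23 tested of 24 listed. LPS raised 11 and lowered none (median 0.93), against 8.3% and 8.05% of all genes. Jak2, a kinase of the interferon gamma receptor, rose from 32.9 ± 1.11 to 367 ± 23.5 CPM. The feedback inhibitors Socs3 and Usp18 rose by 6.27 ± 0.12 and 4.94 ± 0.15.

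MP alone raised 2 of the 23 and lowered none (median 0.11), against 1.82% and 1.85% of all genes. Ticam2, the TLR4 adaptor also called TRAM, was at 8.54, 9.49 and 7.70 CPM in control and 30.6, 29.4 and 28.8 CPM in MP, a difference of 1.68 ± 0.10 (adjusted p = 7.80e-09). Nlrc5, a transactivator of class I antigen presentation genes, went from 20.0 ± 1.20 to 57.0 ± 3.16 CPM. The interferon regulatory factor gene Irf1, chosen after its value was seen, was not called with MP (-0.16 ± 0.16, adjusted p = 0.440). Adding MP to LPS gave 0 calls of 23 by limma, with 8 at an unadjusted p under 0.05 (median -0.09), against 44.5% of all genes. The most abundant by the mean of the 4 groups, Socs3 and the interferon receptor gene Ifnar1, differed by -0.23 ± 0.12 and 0.21 ± 0.06. Tlr4, the LPS receptor gene, chosen after its value was seen, was just short of 2-fold. It stood at 50.9, 67.9 and 48.7 CPM in LPS and at 28.7, 28.7 and 28.0 CPM in LPS+MP, separate groups with a difference of -0.93 ± 0.11 (adjusted p = 7.26e-06). It was -0.61 with MP alone and fell in LPS+MP against control, at -1.34. In the interaction 2 of the 23, Ticam2 and Nlrc5, were called, at -1.82 ± 0.14 and -1.26 ± 0.14, against 4.7% of all genes.

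The ATG8 conjugation system, with ubiquitin ligases and adaptors, places IRGs and GBPs on vacuoles, and 16 of its 17 listed genes were tested. MP alone raised 1 gene, Sqstm1, the ubiquitin adaptor p62, by 1.66 ± 0.07, and lowered none, against 1.82% and 1.85% of all genes. LPS raised Lgals8, a galectin that marks broken vacuoles, by 1.14 ± 0.09 and lowered Lgals3, another such galectin, by -1.88 ± 0.09. That is 1 gene in each direction, against 8.3% of all genes that rose and 8.05% that fell. Adding MP to LPS raised Sqstm1 alone, by 1.73 ± 0.07, against 4.52% of all genes called. At an adjusted p under 0.05 of any size 10 of the 16 were higher, against 13% of all genes. The median of the list was 0.34 there, beside -0.05 over all genes.

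Caspase-11 and the inflammasome genes downstream of GBPs numbered 10, all tested. LPS raised 5 and lowered none (median 1.05), against 8.3% and 8.05% of all genes. Casp4, which encodes caspase-11, the LPS sensor that GBPs assist, rose from 12.3 ± 1.68 to 67.8 ± 6.88 CPM. The cytokine gene Il1b rose from 0.0886 ± 0.0816 to 1448 ± 138 CPM, and the sensor genes Nlrp3 and Nlrc4 rose by 1.17 ± 0.06 and 1.41 ± 0.10. Il1b passed the filter only through libraries with LPS. Neither MP alone nor MP added to LPS gave a call, with 8 and 7 of the 10 at an unadjusted p under 0.05 (limma), against 47.5% and 44.5% of all genes. The most abundant, Il1b and Nlrp3, differed by 0.29 ± 0.10 and -0.32 ± 0.06 with MP alone, and by -0.32 ± 0.10 and 0.64 ± 0.06 with MP added to LPS. The 6 genes of prenylation and CaaX processing, the steps that anchor Gbp2 and Gbp5 in membranes, gave 0 calls in each of the comparisons. At an unadjusted p under 0.05 (limma) there were 0 to 4, against 35.2% to 69% of all genes. Among all genes 8.3% rose with LPS and 4.52% were called with MP added to LPS. The most abundant of the 6 was Zmpste24, at 78.5, 70.3, 88.2 and 70.5 CPM in control, MP, LPS and LPS+MP, followed by Icmt at 48.3, 45.3, 57.0 and 55.9.

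Likeness was measured as Pearson's r across the 12 libraries with the mean standardized profile of the 10 genes. It is a description, since the libraries fall into 4 groups and share their processing. Among the 10, each itself part of that mean, r was 0.949 to 0.994 except for Gbp8 at 0.0873. By Spearman's rho Gbp8 stood at 0.399 and the other 9 at 0.762 to 0.916. Gbp8 itself had Pearson's r of -0.117 to 0.086 with the other 9. The 5 other genes with the highest r were Gbp4 (0.996), Sptlc2 (0.996), Trim30d (0.996), Epsti1 (0.995) and Gm4951 (0.995). Sptlc2, a subunit of the enzyme that starts sphingolipid synthesis, differed in size of change, with 92.0 CPM in control and 200.3 in LPS. Trim30d went from 0.0663 to 16.7 CPM. Gbp4, Trim30d and Gm4951 passed the filter only through libraries with LPS.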

How the data were processed

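RNA sequencing of 12 J774A.1 libraries (3 biological replicates in each of 4 groups, from the labels) was used. Per the labels' protocols, polyadenylated RNA was made into directional libraries with 16 PCR cycles. The tools named per the submitters' processing notes, without roles, were edgeR, DESeq2, TopHat2 2.1.1, HTSeq, Trimmomatic 0.36 and FastQC 11.5. A genome build is not given in the sources used here. The deposited columns are headed RPKM but were read as CPM, because each sums to between 998867 and 999273. A further deposited column, headed logCPM, was read as log2 CPM and used only for that check (r = 0.996 with the log2 mean). Whole reads could not be recovered, so no count test was run and depth is unknown. The table gives Gbp5 a gene ID that GENCODE M21 assigns to Gbp2b; its coordinates and transcript are those of Gbp5.

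A model of 4 group means was fitted to log2(CPM + 1) with limma 3.58.1 (R 4.3.3, trended variance), on 11745 genes with at least 1 CPM in at least 3 libraries. Tests were two-sided, with Benjamini-Hochberg adjustment over all of them. The procedure was tested on simulated data in which only the LPS and LPS+MP groups were shifted, by equal amounts. No MP effect and no interaction was simulated, so recovery of these was not tested. Genes were called at an adjusted p under 0.05 and over 2-fold, the thresholds of the series description. The 10 genes, the gene lists and the tests were chosen with earlier results of these data known. Named genes were the 10 genes, up to 4 called genes of each list by adjusted p, and the 5 most alike genes. Where a comparison called none of a list, the 2 most abundant by the mean of the 4 groups were named by the same rule. A further gene that this rule names is not reported here. Promoter windows were those of RefSeq; levels per kilobase used the length of the transcript named in the table. Alternatives were a pseudocount of 0.1, no filter or 5 CPM, limma without the trend, quantile or median-ratio scaling, fits of the compared groups alone, a replicate block, no fold threshold, each library left out in turn, other lengths, and Spearman's rho.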

Additional observations from a re-analysis of the deposited data

Results flagged for a closer look

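Gbp8 responded to MP differently with and without LPS, by a test of the difference itself (limma interaction). The MP effect was 2.52 ± 0.22 without LPS and -0.66 ± 0.22 with LPS, a difference of -3.19 ± 0.31 (log2). The TLR4 adaptor gene Ticam2 had an interaction of -1.82 ± 0.14, and the transactivator gene Nlrc5 one of -1.26 ± 0.14.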

How the results depend on the processing

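Of 970 values of the 10 genes under alternatives, 932 kept their direction and their side of the threshold, 19 newly passed it, 1 was lost (Iigp1, LPS+MP minus MP, 0.93 without LPS+MP replicate 1) and 18 changed sign, each of an uncalled difference. With MP minus control, 2 genes were called at a pseudocount of 0.1 (Gbp8 and Gbp7) and 5 with no fold threshold, against 1; leaving out a library gave 1 to 2. In LPS+MP minus LPS, 3 were called with no fold threshold, against 0. Other counts of the 10 genes were within 1.5 times, and Iigp1 could not be tested at 5 CPM.

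Signs changed for the interaction of Gbp5 (0.31 at a pseudocount of 0.1, 0.0112 with quantile normalization) and of Ifi47 (0.0486 with quantile normalization). The other sign changes came from leaving out 1 library. The ranges over libraries left out were, for MP minus control, -0.0277 to 0.14 (Irgm1), -0.10 to 0.0221 (Igtp) and -0.00425 to 0.13 (Iigp1). For LPS+MP minus LPS they were -0.29 to 0.0410 (Gbp2), -0.49 to 0.11 (Gbp5), -0.0391 to 0.15 (Igtp) and -0.51 to 0.0137 (Iigp1). For the interaction they were -0.40 to 0.20 (Gbp5), -0.00671 to 0.18 (Igtp) and -0.23 to 0.0221 (Ifi47). The cause was not tested.

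Over all genes the replicate numbers showed little pairing: the 18 same-numbered pairs had a median correlation of deviations of 0.0178 (-0.247 to 0.158). A library's own number was the best match for 3 of 12 libraries. That correlation does not speak for the 10 genes alone. Their median deviation was 0.20 and 0.17 in replicate 1 of LPS and LPS+MP, and -0.30 and -0.17 in replicate 3. In control and MP it was -0.02 and -0.05 in replicate 1, and 0.02 and 0.09 in replicate 3. Pairing in these genes was not tested. With the replicate block the calls were 1 (MP minus control), 10 (LPS minus control), 8 (LPS+MP minus control), 0 (LPS+MP minus LPS), 10 (LPS+MP minus MP) and 1 (interaction), as without it.

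Of the 5 genes most like the family by Pearson's r, 1 (Epsti1) was among the 5 by Spearman's rho. Fits without LPS replicate 2 for comparisons that hold no LPS-only cells, and the alternatives for other called genes (1405 of 1413 kept their call), were added after seeing the data. With depth unknown, no limit can be set for Gbp5 and Iigp1, both near 0 CPM without LPS.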

Other observations

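The 5 genes whose values across the 12 libraries were most like those of Gbp8, by Pearson's r on log2(CPM + 1), were Xpr1 (0.960), Arhgap12 (0.950), Mcfd2 (0.949), Acsf2 (0.946) and Gnpnat1 (0.940). They were chosen after their values were seen, and r is a description. Xpr1, a phosphate exporter gene, had means of 78.3 CPM in control, 141 in MP, 112 in LPS and 100.4 in LPS+MP.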
